A study of Homo sapiens with 2 samples.

Results

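The nuclear genome encodes most subunits of the respiratory chain and of the ATP synthase. These genes were taken here as the protein-coding genes whose symbols begin with the stems of complex I (NDUFA, NDUFB, NDUFC, NDUFS or NDUFV followed by a digit), complex II (SDHA to SDHD), complex III (UQCR and CYC1), complex IV (COX4 to COX8) and complex V (ATP5F1, ATP5M and ATP5P). This leaves out NDUFAB1 and the NDUFAF assembly factors. The rule found 87 genes among the 62700 genes of the gene table, of which 19831 were typed as protein-coding. Complex I held 36 of the 87, complex II held 4, complex III held 10, complex IV held 19 and complex V held 18. NDUFA4 and NDUFA4L2, which carry a complex I name, were counted with complex IV, to which NDUFA4 is now assigned. The rule uses symbols and gene types and no measured value, but it was set with earlier results of these data known. Symbols of 263 genes of any type match the stems, and those not typed as protein-coding were left out.

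The respiratory chain passes electrons from NADH (through complex I) and from succinate (through complex II) to ubiquinone, on to cytochrome c through complex III, and to oxygen through complex IV. Complexes I, III and IV pump protons across the inner mitochondrial membrane, and complex V, the ATP synthase, lets them back through its rotor to make ATP. All of these complexes except complex II also contain subunits encoded in mitochondrial DNA, so both genomes must supply parts. Several complex IV subunits have alternate genes that are known from muscle, lung or testis.

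RNA came from TCam-2, an established human testicular cancer cell line of the seminoma type, transduced to overexpress DDX53, an RNA helicase gene on chromosome X. Both libraries, called replicate 1 and replicate 2, are labelled as carrying this construct, and they are the only group of the series. Cells transduced with GFP-FLAG and untransduced cells served the study as controls but were not analysed here, so nothing below compares DDX53 with a control. Polyadenylated RNA was treated to remove DNA and made into strand-specific libraries, and nothing in the labels says whether the replicates were separate cultures or transductions.

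The gene table gave 24137664 reads in genes for replicate 1 and 22198929 for replicate 2. DDX53 had 146 and 147 reads, or 1.97 TPM and 2.13 TPM, below the median of all detected genes (13.4 TPM and 13.2 TPM), which is low for a gene labelled as overexpressed, and no control library is at hand to tell the construct from the cell's own transcripts. All 6 seminoma markers were detected, among them POU5F1, NANOG and TFAP2C, and the SOX2 gene of embryonal carcinoma had 24 reads in each library. None of 7 markers of later germ cells and none of 3 muscle markers was detected, where detection means at least 1 CPM (reads scaled to a library of fixed size, over all reads in genes) in both libraries. The 7 germ cell genes had 11 and 10 reads in all, and the 3 muscle genes had 2 and 4. DAZL, SYCP1, PRM1, TNP1, PGK2, MYH7, CKM and the blood cell gene PTPRC had no read in either library. AMH, known from Sertoli cells, was at 5.91 CPM and COL1A1 of fibroblasts at 10.2 CPM (means of both libraries).

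Most of the subunit genes were expressed, and at high levels for their length. Of the 87 genes, 78 were detected in both libraries, against 61.7% of all protein-coding genes. Their share of all reads was 1.0956% (95% Wilson interval, 1.0915 to 1.0998) in the first library and 1.1016% (1.0973 to 1.106) in the second, a mean of 1.099% ± 0.00422 (SD, n = 2). In TPM, a share of transcripts that takes their length into account which is the scale used below to compare genes with each other, they summed to 28868 TPM and 28689 TPM. This is 2.89% and 2.87% of all transcripts. Their transcripts were short, with a median length of 811 bases against 2414 bases over all genes. In both libraries 63 of the 87 genes, 72.4%, were above 100 TPM, which 7.05% of protein-coding genes were.

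**Figure D1:**
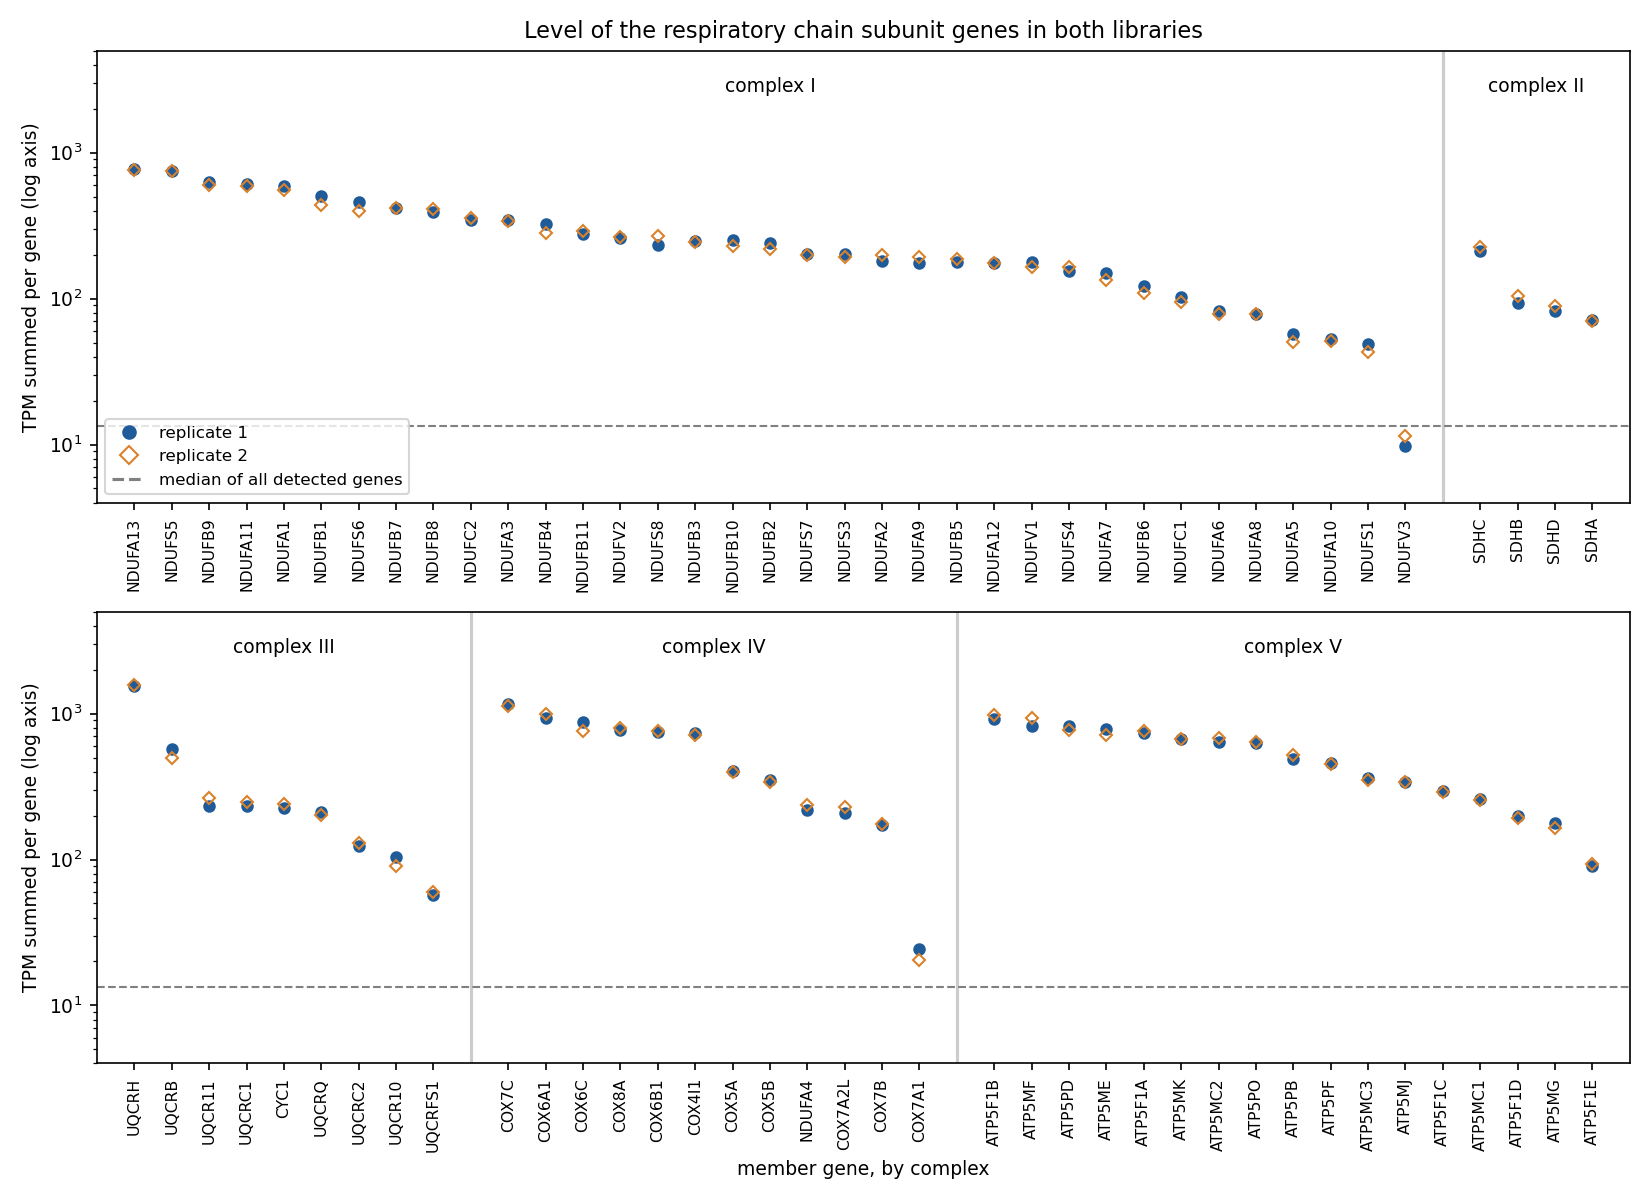
TPM summed per gene (log axis) of 77 subunit genes at 1 TPM or more in each library, by complex and in falling order, with filled circles for replicate 1, open diamonds for replicate 2 and a dashed line at the median of all detected genes (13.3 TPM). Levels run from UQCRH at 1537 TPM and 1580.5 TPM to NDUFV3 at 9.70 TPM and 11.5 TPM. The symbols of the 2 libraries lie almost on top of each other. Genes with reads over 4-fold above what their TPM predicts, such as UQCRHL and COX7A2, are not drawn. Genes with far fewer reads than predicted, such as NDUFA13, are drawn.

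Among 75 detected genes whose TPM could be used, the median level was 252 TPM in replicate 1 and 264 TPM in replicate 2, against 13.4 TPM and 13.2 TPM over all detected genes. A TPM counted as usable unless the reads were over 4-fold above what it predicts. Detected genes with far fewer reads than predicted, described below, were kept. For transcripts under 1000 bases, the medians were 348 TPM and 359 TPM in subunit genes and 39.8 TPM and 39.6 TPM in all detected genes. For longer transcripts they were 176 TPM and 165 TPM, against 12.7 TPM and 12.6 TPM. The 75 genes spread widely around their median: the highest was 158 times the lowest in replicate 1 and 138 times in replicate 2. The libraries differed far less than the genes did, by a median of 1.05-fold and at most 1.21-fold, the latter in COX7A1. By complex, the median level was highest in complex IV with 565 ± 8.44 TPM (SD, n = 2), followed by complex V with 503 ± 24.9 TPM. Complexes III and I were close to each other with 234 ± 10.6 TPM and 226 ± 12.1 TPM, and these do not differ beyond their spread. Complex II was lowest with 92.3 ± 6.14 TPM.

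In complex I, NDUFA13 and NDUFS5 had the highest TPM. Both are accessory subunits, which surround the catalytic core. NDUFA13 was at 770 TPM in replicate 1 and 764 TPM in replicate 2, and NDUFS5 at 748 TPM and 746 TPM, so they lay close together. However, NDUFA13 had only 20 and 9 reads, far fewer than its TPM predicts, as described below. At the low end, NDUFV3, a small accessory subunit of the NADH-binding module, was at 9.70 TPM and 11.5 TPM.

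The catalytic core genes of complex I had a lower median level than the accessory genes, a difference that was not tested: a median of 201 TPM in replicate 1 and 195 TPM in replicate 2 over 6 core genes, against 247 TPM and 229 TPM over 27 detected accessory genes. NDUFV1, which binds NADH and FMN, was at 178 TPM and 164 TPM, and its neighbour NDUFV2, an iron-sulfur subunit, was at 261 TPM and 264 TPM. NDUFS1, the largest iron-sulfur subunit, was the lowest of these 6 genes, at 48.6 TPM and 42.9 TPM. NDUFS3 at 201 TPM and 192 TPM, NDUFS7 at 201 TPM and 197 TPM and NDUFS8 at 234 TPM and 268 TPM belong to the arm that leads electrons to ubiquinone. The core genes spanned a wide range, while the assembled complex holds a single copy of each core subunit.

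Complex II, succinate dehydrogenase, was expressed at a lower level than the other complexes by this measure. SDHC, a membrane anchor, had the highest TPM with 212 TPM and 227 TPM, and most of that came from SDHC-202, a transcript that GENCODE 29 lists at 13566 bases. SDHA, the flavoprotein that oxidises succinate, was lowest with 70.8 TPM and 70.3 TPM. The iron-sulfur subunit SDHB had 93.2 TPM and 104 TPM, and the other anchor SDHD had 82.6 TPM and 89.5 TPM. SDHA and SDHC, which enter the median of the complex, had far fewer reads than their TPM predicts, as described below.

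In complex III, UQCRH, the hinge protein beside cytochrome c1, had the highest TPM of all 87 genes, with 1537 TPM in replicate 1 and 1580.5 TPM in replicate 2. UQCRB, a small subunit near the ubiquinone site, followed at 571 TPM and 496 TPM. The redox-active subunits were far lower: CYC1 (cytochrome c1) had 227 TPM and 242 TPM, and UQCRFS1 (the Rieske iron-sulfur protein) had 56.8 TPM and 59.9 TPM. UQCRFS1 was the lowest detected gene of the complex apart from UQCRHL, a near copy of UQCRH described below.

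Complex IV, cytochrome c oxidase, held the second highest gene of the whole set, COX7C, at 1167 TPM and 1126 TPM. COX6A1 followed at 933 TPM and 991 TPM. Of its 12 common accessory genes, 11 had a usable TPM, and their median was 737 TPM in replicate 1 and 718.5 TPM in replicate 2. The lowest of these was COX7B at 173 TPM and 176 TPM. The complex also held 4 of the 5 genes with 0 reads in both libraries, all of them among its 7 alternate genes.

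Complex V was led by ATP5F1B, the catalytic beta subunit of the F1 head, with 926 TPM in replicate 1 and 981 TPM in replicate 2. On the scale of reads it was the highest of all 87 genes with 28474 and 27447 reads, and ATP5F1A, the alpha subunit with which it alternates around the head, was next with 25660 and 24513 reads. ATP5F1A was at 731 TPM and 760 TPM. ATP5MF, a small membrane subunit, was second in TPM with 821 TPM and 928 TPM. At the other end of the F1 head, ATP5F1E, the epsilon subunit, was at 90.9 TPM and 92.5 TPM, the lowest level among the expressed genes of the complex, and ATP5MGL had no read in either library. The gamma gene ATP5F1C (296 TPM and 290.02 TPM) and the delta gene ATP5F1D (200.2 TPM and 193 TPM) also lay below alpha and beta in both libraries. Outside the head, ATP5MF and the peripheral stalk gene ATP5PD (818 TPM and 768 TPM) lay above alpha in both. Whether levels go along with the number of copies in the enzyme was not tested.

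The ring of c subunits that turns in the membrane is encoded by ATP5MC1, ATP5MC2 and ATP5MC3. Their mature proteins are known to be the same, while their import sequences differ. All were expressed: ATP5MC2 was highest with 637 TPM and 679.55 TPM, ATP5MC3 had 364 TPM and 353 TPM, and ATP5MC1 had 258 TPM and 256 TPM. The order was the same in both libraries. The coding sequences were 67.1% to 70.5% identical in pairs over their whole length, and the last 90 coding bases before the stop codon are printed to show how reads of these genes can be told apart. They come from GENCODE 29 transcripts (GRCh38), and capitals mark the 25 positions at which the genes differ.
ATP5MC1: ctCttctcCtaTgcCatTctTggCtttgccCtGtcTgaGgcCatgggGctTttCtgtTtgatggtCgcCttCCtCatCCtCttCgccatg
ATP5MC2: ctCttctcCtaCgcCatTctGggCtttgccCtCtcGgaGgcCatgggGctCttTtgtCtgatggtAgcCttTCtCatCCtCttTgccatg
ATP5MC3: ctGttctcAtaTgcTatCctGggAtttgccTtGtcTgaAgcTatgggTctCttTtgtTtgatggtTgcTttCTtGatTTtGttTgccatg

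Alternate genes had few or no reads in most of the 8 pairs of a common gene and its alternate. COX4I1 had 737 TPM and 718.5 TPM and COX4I2, known from lung, had no read. COX6A1 had the levels given above and COX6A2, the heart and muscle form, had no read. COX7B, COX8A (768 TPM and 792 TPM) and their alternates COX7B2 and COX8C showed the same pattern, with no read for either alternate. With 0 reads, a level of up to 0.124 CPM or, in the second library, 0.135 CPM is still possible (3 reads, counting error only). COX6B2, known from testis and sperm, had 3 and 5 reads and 0.107 TPM and 0.156 TPM, beside 744 TPM and 763 TPM for COX6B1. NDUFA4L2, known as a hypoxia-induced gene, had 6 reads in each library and 0.539 TPM and 0.312 TPM, beside 217 TPM and 237 TPM for NDUFA4.

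COX7A1, the heart and muscle form, was the only alternate gene of complex IV to be detected, with 86 reads in replicate 1 and 73 in replicate 2. Its level was 24.5 TPM and 20.3 TPM, with 54.5% and 55.7% of the summed TPM of the pair. That share cannot be read as dominance, because the common gene COX7A2 was listed at only 20.5 TPM and 16.1 TPM while it had 2578 and 2557 reads. Per kilobase of the gene's exons, COX7A2 had 1341 and 1330.4 reads and COX7A1 had 85.5 and 72.6 reads, a ratio of 15.7 and 18.3. The alternate gene was therefore below the common gene in 7 of 8 pairs by TPM and in 8 of 8 by reads per kilobase. Defining muscle genes were at or near 0, as stated above.

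**Figure D2:**
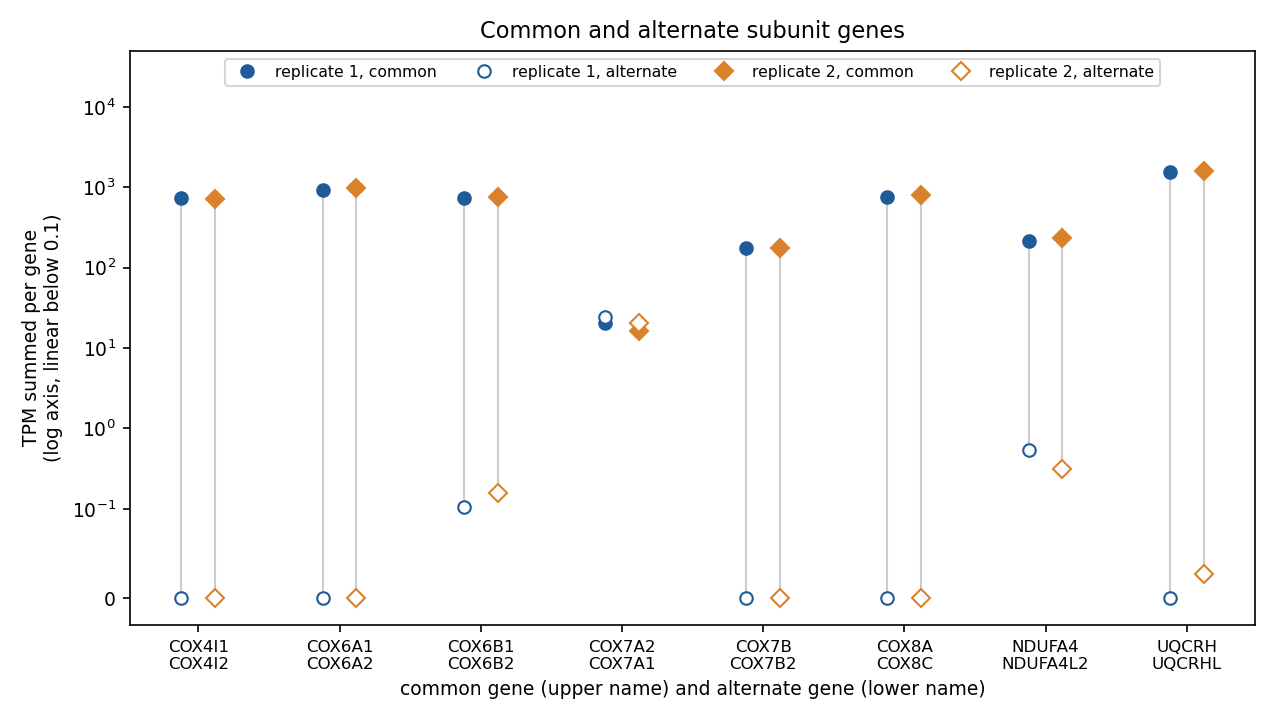
TPM summed per gene (log axis, linear below 0.1) for 8 pairs of a common gene (filled symbols) and its alternate (open symbols), with circles for replicate 1 and diamonds for replicate 2. Alternates sit at or near 0 except COX7A1, which lies level with COX7A2 at about 20 TPM; the COX7A2 value is uncertain because its 2578 and 2557 reads are far above what its TPM predicts.

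UQCRH and UQCRHL show how close copies limit such comparisons. UQCRH lies on chromosome 1 from 46303631 to 46316776 (plus strand) and UQCRHL on the same chromosome from 15807169 to 15809348 (minus strand). Their coding sequences of 273 bases were identical at 269 positions, 98.5%. The stretch that holds all 4 differences (bases 143 to 248 from the start codon, GENCODE 29) is printed with the differences in capitals.
UQCRH: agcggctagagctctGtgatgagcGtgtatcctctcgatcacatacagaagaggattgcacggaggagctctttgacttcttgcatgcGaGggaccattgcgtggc
UQCRHL: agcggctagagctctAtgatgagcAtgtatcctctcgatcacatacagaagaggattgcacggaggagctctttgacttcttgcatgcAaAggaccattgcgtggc
The gene table gave UQCRHL 517 and 413 reads, against 9637 and 9183 for UQCRH. The transcript table listed UQCRHL at 0 TPM in replicate 1 and 0.0273 TPM in replicate 2. The tables thus disagree on whether UQCRHL is expressed, and the count of 78 detected genes includes it. Across the whole set, pseudogenes named after a member took few reads: 188 such genes, belonging to 49 members, had 325 reads in replicate 1 and 293 in replicate 2. Most of these were in the 4 pseudogenes of SDHA, with 266 and 221 reads, more than the 110 and 87 reads of SDHA itself.

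For many subunit genes the gene table and the transcript table gave different pictures. A number of reads was predicted for each gene from its TPM and transcript length, and genes that reached 10 TPM in each library were called short where their reads were over 4-fold below it in both. Of 77 such subunit genes 15 were short, against 5.66% of all such genes. Shortage was more frequent among genes with short transcripts. With transcripts under 1000 bases, 11 of 52 subunit genes and 161 of 877 of all genes were short. With longer transcripts, 4 of 25 and 260 of 6555 were. The gap was widest in NDUFA13, which had 20 and 9 reads, 617 and 1255.5 times fewer than its TPM predicted. NDUFV2, a core subunit, had 35 and 39 reads (111 and 93.3 times fewer) and NDUFA7 had 14 and 13 reads (103 and 92.0 times fewer). NDUFA13 and NDUFA7 therefore missed the detection threshold by reads, although their TPM were 770 and 764 and 150 and 135.

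The other short genes of complex I were NDUFB8 with 87 and 123 reads, NDUFA11 with 121 and 94 reads, NDUFC2 with 239 and 248 reads and NDUFA9 with 356 and 321 reads. In complex II, SDHA had 110 and 87 reads, 23.7 and 26.7 times fewer than predicted, and SDHC had 3691 and 3606 reads, 10.7 and 10.4 times fewer. UQCR11 was the only short gene of complex III, at 5.75 and 6.77 times. COX6A1 and COX8A in complex IV were short 9.08 and 8.63 times and 5.22 and 5.24 times. In complex V, ATP5PO, a subunit of the peripheral stalk, was short 10.8 and 13.3 times, ATP5MG 10.9 and 10.00 times, and ATP5MF 9.32 and 9.65 times.

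Of these 15 genes, 13 shared exonic bases with another annotated gene on the same strand, and SDHA and SDHC did not. Among the 62 other subunit genes at 10 TPM or more, 11 did. Over all genes such overlap was found in 74.3% of the short genes, in 14.3% of the others and in 17.7% of both together. The overlap covered 8.19% (ATP5MG) to 34.5% (COX8A) of the exonic length of the 13. For each of the 13, the gene with the largest overlap was looked up. These partners, among them NDUFC2-KCTD14 and ATP5MF-PTCD1, which are annotated as read-through genes, had few reads themselves, at most 22 in any library. What part the overlap has in the shortage was not tested. For SDHC, the predicted number rests on the annotated length of SDHC-202.

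**Figure D3:**
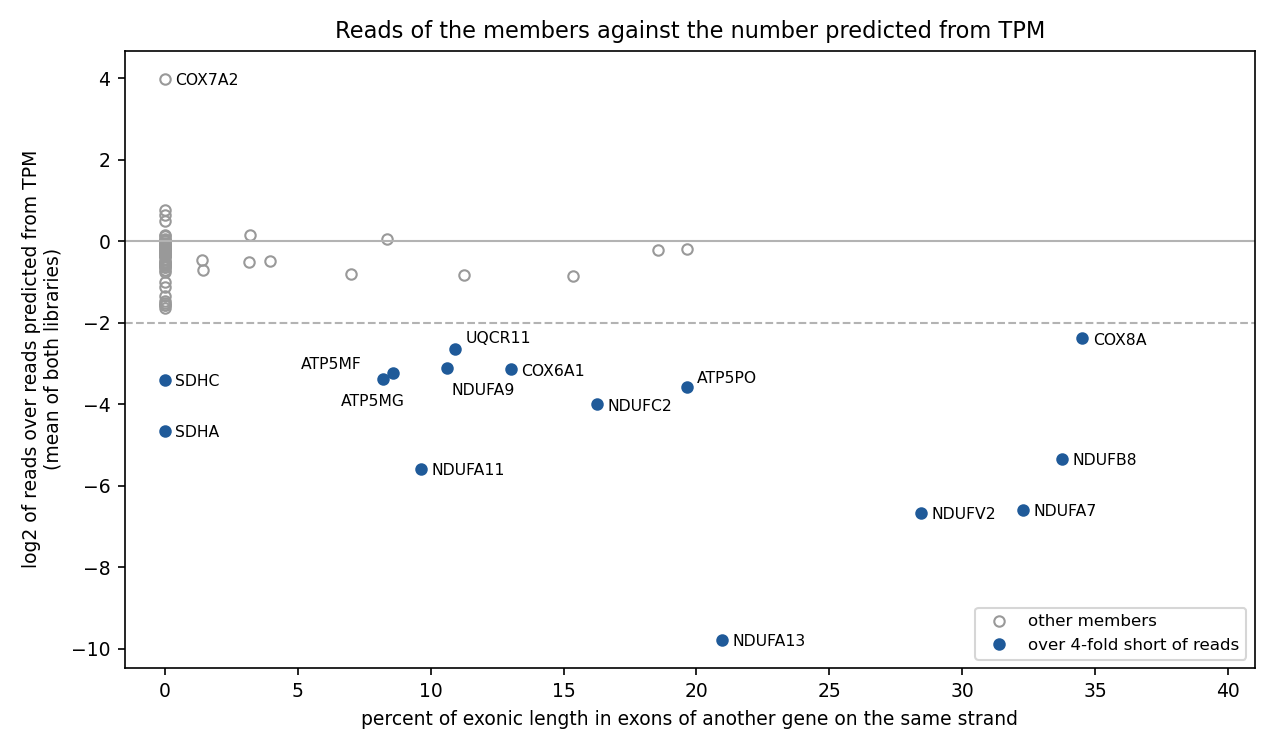
Log2 of the reads in the gene table over the reads predicted from TPM (mean of both libraries) against the percentage of a gene's exonic length shared with another gene on the same strand, for 77 subunit genes at 10 TPM or more; filled circles are the 15 genes over 4-fold short, and the dashed line marks that limit. The filled points lie at 8.19% or more except SDHA and SDHC at 0%, NDUFA13 is lowest, and COX7A2 is farthest above the line of equality.

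The opposite case, reads over 4-fold above the prediction in both libraries, was found in 3 of 78 detected genes, UQCRHL and COX7A2 among them, a share near the 3.86% of all detected genes. The TPM of COX7A2 is therefore uncertain, and the cause was not tested. Genes with such an excess were left out of every median of TPM, while detected genes short of reads were kept.

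The replicates were then set against each other to show how far a subunit gene moves between libraries of the same kind. Differences are log2((CPM + 1)/(CPM + 1)), replicate 2 against replicate 1, and low genes are understated on this scale. Over the 78 genes averaging 1 CPM or more the median difference was -0.014, against -0.0077 over all 13898 such genes, and 43 of the 78 were lower in replicate 2, where 52.2% of all genes were. In an exact binomial test per gene (edgeR, Benjamini-Hochberg adjustment over 15299 genes), 25 of 79 subunit genes tested differed by more than counting noise, against 13.1% of all genes. The test is stronger for genes with many reads: among genes averaging 50 CPM or more, 20 of 58 subunit genes were called (34.5%) and 28.9% of all genes. The test compares 2 libraries and not conditions, and no difference here has a replicate check.

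Of the 25 genes, 13 were higher in replicate 2, against 6.49% of all genes tested, and 12 were lower, against 6.65%. With other scalings the split was 9 higher and 14 lower (DESeq2 size factors) or 10 and 14 (library totals), so the balance of directions depends on the scaling. The 13 were NDUFB8, NDUFB5, SDHB, SDHC, SDHD, UQCRC1, UQCRFS1, NDUFA4, COX7A2, COX7A2L, ATP5F1A, ATP5F1B and ATP5F1E. The 12 were NDUFS6, NDUFB1, NDUFB4, NDUFB10, NDUFS1, NDUFV1, UQCRB, UQCR10, COX6C, ATP5PO, ATP5PD and ATP5ME. In TPM, made by other software from the same libraries, 23 of the 25 moved in the same direction, and COX7A2 and ATP5PO moved in the other.

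In complex II 3 of the 4 genes were called, all higher in replicate 2, where 6.49% of all genes tested were called higher. The median difference was 0.12, which rests on only 4 genes, and SDHA differed in the other direction (-0.18). SDHD, an anchor subunit on chromosome 11, had 41.9 CPM in replicate 1 and 52.1 CPM in replicate 2, a difference of 0.31 (edgeR exact binomial test, adjusted p = 9.07e-06). SDHB had 60.7 CPM and 67.8 CPM, a difference of 0.16 (exact binomial test, adjusted p = 0.0215). SDHC had 153 CPM and 162 CPM, a difference of 0.087 that lay at the threshold (exact binomial test, adjusted p = 0.0499). SDHA, the short gene, had 4.56 CPM and 3.92 CPM and was not called. In TPM the anchors and SDHB were also higher in replicate 2, and SDHA was at 70.8 TPM and 70.3 TPM.

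Complex I had a median of -0.029, with 2 of 35 genes tested called higher and 6 lower (22.9% in all). Over all genes tested 6.49% were called higher and 6.65% lower, and 28.9% of those averaging 50 CPM or more were called in either direction. NDUFS6, an accessory subunit of the electron input module, fell from 113 CPM to 96.2 CPM, a difference of -0.23 (exact binomial test, adjusted p = 2.41e-06). NDUFB1 fell from 53.8 CPM to 47.1 CPM (-0.19) and NDUFB4 from 114 CPM to 100.5 CPM (-0.18), both accessory subunits of the membrane arm. The core genes NDUFV1 and NDUFS1 differed by -0.12 and -0.13, and NDUFV2, NDUFS3, NDUFS7 and NDUFS8 were not called. NDUFB5 rose from 35.0 CPM to 43.4 CPM, a difference of 0.30 (exact binomial test, adjusted p = 0.000109). NDUFB8 had the largest difference of the set, 0.51, but on 87 and 123 reads, 49.3 and 33.7 times fewer than predicted, and its TPM were 395 and 413.

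Complexes III, IV and V had medians of -0.020, 0.029 and -0.010. In complex III the core protein UQCRC1 (256 CPM and 277 CPM) and the Rieske protein UQCRFS1 were higher in replicate 2, and the small subunits UQCRB (319 CPM and 287 CPM) and UQCR10 (50.8 CPM and 44.9 CPM) were lower. In complex IV, COX6C fell from 236 CPM to 207 CPM, a difference of -0.19 (exact binomial test, adjusted p = 5.34e-09), while NDUFA4 rose from 307 CPM to 341 CPM, a difference of 0.15 (exact binomial test, adjusted p = 1.31e-09). In complex V the alpha and beta genes ATP5F1A and ATP5F1B differed by only 0.055 and 0.068, differences that the test could resolve because of their many reads. ATP5PO was furthest apart, with 36.0 CPM and 30.1 CPM, but its TPM were 625 and 638. None of the c ring genes was called.

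**Figure D4:**
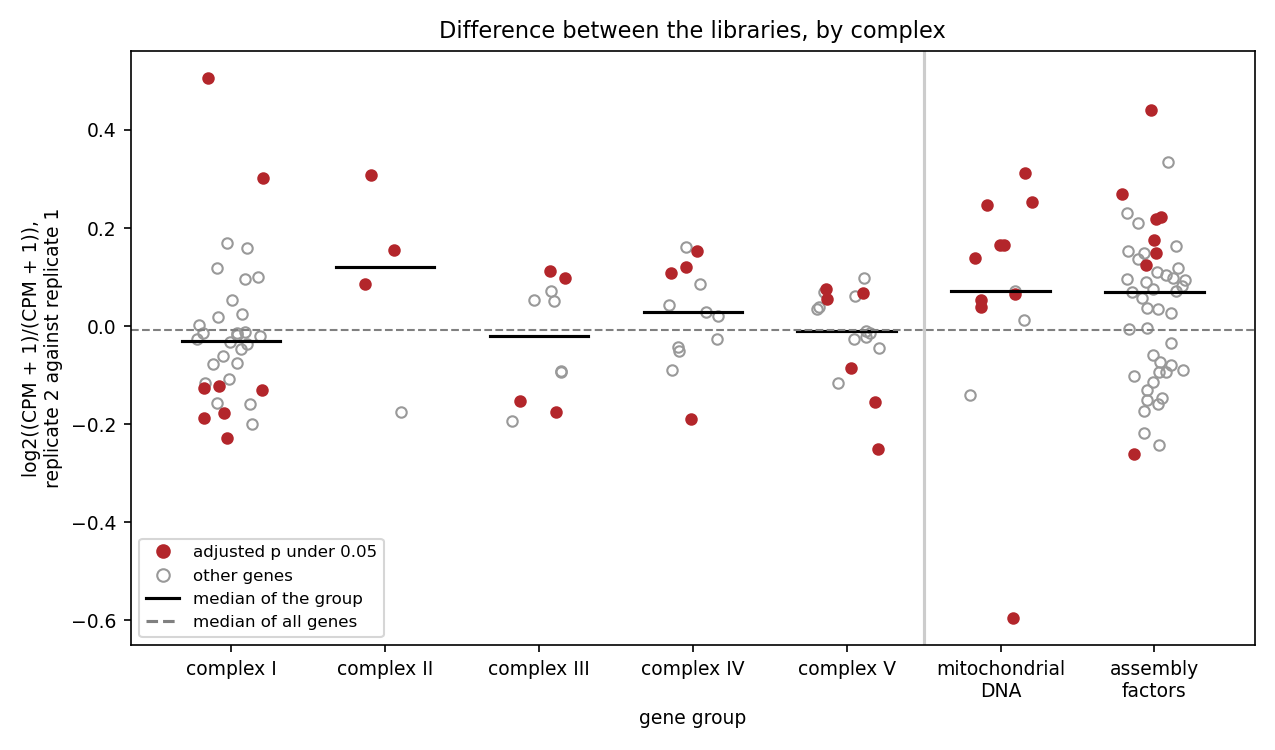
Difference between the libraries, log2((CPM + 1)/(CPM + 1)) with replicate 2 against replicate 1, for the subunit genes of each complex and for 2 comparison lists, with filled points for genes called by the exact binomial test (adjusted p under 0.05), bars at group medians and a dashed line at the median of all genes. Complex II has 3 of 4 genes called above 0, complex I has more called points below 0 than above it, and the genes of mitochondrial DNA lie mostly above 0. Of all genes tested 6.49% were called higher in replicate 2 and 6.65% lower.

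Transcript length went along with the direction of these differences. The 28 genes with transcripts of 1000 bases or more that averaged 1 CPM or more had a median difference of 0.031, with 9 called higher and 3 lower. The 50 genes with shorter transcripts had a median of -0.020, with 4 called higher and 9 lower. Over all genes the medians were -0.0079 for long and -0.0082 for short transcripts. Of all long genes tested 893 were called higher and 908 lower (13.8% in all), and of all short genes 91 and 98 (10.8%). The part of length in the differences of the subunit genes was not tested.

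Genes that work with these subunits gave a wider view. The 13 subunit genes of mitochondrial DNA took 1.503% of reads in replicate 1 and 1.66% in replicate 2, more than the 1.0956% and 1.1016% of the 87 nuclear genes. In TPM they had 27937 TPM and 31473 TPM, about as much as the nuclear genes together. MT-CO2 had the highest level with 5888 TPM and 7302 TPM, and MT-CO1 had 4292 TPM and 4402 TPM. Both encode catalytic subunits of complex IV. MT-CO3 was at 3862 TPM and 4576 TPM, below MT-CO1 in replicate 1 and above it in replicate 2. Of these 13 genes 9 were called higher in replicate 2 and 1 lower (MT-ND6), where 6.49% of all genes tested were called higher and 6.65% lower. Among all genes averaging 50 CPM or more, 28.9% were called in either direction. With many reads the test resolves small differences, such as 0.039 for MT-CO1 on 116256 and 109880 reads. The median difference of the 13 genes was 0.072, while the nuclear genes had the median of -0.014 given above. Summed TPM of the nuclear genes moved from 28868 to 28689 at the same time.

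Assembly factors, which build the complexes without staying in them, were expressed at lower levels, with a median of 37.4 TPM in replicate 1 and 34.7 TPM in replicate 2 over 47 of 49 genes. They had a median difference of 0.070. Of the 49 genes 7 were called higher and 1 lower, where 6.49% of all genes tested were called higher and 6.65% lower. In either direction 16.3% were called, against 13.1% of all genes tested. NDUFAF7, a methyltransferase for complex I, and COX11, a copper chaperone for complex IV, had the most reads of the list, and both were called higher, with differences of 0.13 and 0.22. Of 11 regulators 2 were called, PPRC1 and PPARGC1B, both lower, where 6.65% of all genes tested were called lower. YY1 and TFAM, the latter the main packaging factor of mitochondrial DNA, had the most reads of the regulators, 174 CPM and 165 CPM for YY1 and 117 CPM and 116 CPM for TFAM, and neither was called. Of 5 partners outside the naming rule 3 were called, all higher: CYCS (cytochrome c, 452 CPM and 494 CPM), NDUFAB1 (328 CPM and 347 CPM) and HIGD1A. Over all genes tested 6.49% were called higher, and a list of 5 genes is too small to read a direction from.

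The transcript table showed little change in which isoform led. For 73 subunit genes at 10 TPM or more in both libraries and with more than 1 transcript, the leading transcript differed between replicates in 2, COX7A2 and NDUFA9, against 6.91% of all genes compared. In NDUFA9, NDUFA9-205 held 37.2% of TPM in replicate 1 and NDUFA9-202 held 35.7% in replicate 2, and both are typed as retained introns. The median share of the leading transcript was 89.5% in replicate 1 and 90.4% in replicate 2, against 72.3% and 72.5% over all genes. In 33 of the 73 genes it held over 90% in both libraries. Transcripts typed as protein-coding carried 90.2% and 90.5% of the TPM of the 87 genes. Neither this share nor the count of 33 is set beside all genes, so neither can be read as particular to the subunit genes.

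In many genes the leading transcript held a share well below the median just given, and the genes named next are examples. In COX6C, the leading transcript COX6C-207 went from 588 TPM to 348 TPM, and COX6C-206 from 157 TPM to 286 TPM. Both are typed as targets of nonsense-mediated decay in GENCODE 29, and the share of COX6C-207 moved from 67.4% to 46.1%, the largest move of the 73 genes. In SDHA, SDHA-201 moved from 65.8% to 51.4%. In UQCRB the leading transcript, UQCRB-203 with 331 TPM and 297 TPM, was also typed as a decay target, and in ATP5PB it was ATP5PB-201, typed as a processed transcript, with 42.2% and 42.6%. The leading transcript was not typed as protein-coding in 8 of the 73 genes, a count that is likewise not set beside all genes. The reads behind each transcript's TPM are not known, and these shares have no interval.

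Promoters were examined for 3 motifs named in the control of such genes: that of NRF1 (GCGCATGCGC), the core of ETS factors such as GABPA (CCGGAAGT), and that of YY1 (AAGATGGC). RefSeq (GRCh38.p14) gave 85 promoters for 70 of the 87 genes, each from 250 bases before to 50 bases after a start, and both strands were searched. No motif is contained in another. The ETS motif was found in 12 promoters (14.1%), against 4.14% of all 35116 promoters and 5.34% of those of protein-coding genes. The YY1 motif was found in 13 (15.3%), against 2.89% and 3.53%, and the NRF1 motif in 4 (4.71%), against 1.24% and 1.5%. At least 1 of the motifs was present in 27 promoters (31.8%), against 7.79% of all.

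The YY1 motif was placed differently from the others. Only 2 of its 13 promoters held it in the 250 bases before the start, a share of 2.35% against 1.36% of all promoters and 1.38% of those of protein-coding genes. Over all promoters 478 of 1014 with the motif held it there. In the members, all 12 promoters with the ETS motif and 3 of 4 with the NRF1 motif held it before the start. ETS matches were in SDHD, UQCRH, UQCRQ, UQCR11, COX5B, COX8A, ATP5F1A, ATP5MK, ATP5PD, ATP5PF, NDUFA13 and NDUFS1, thus in genes of all 5 complexes. The NRF1 motif was in NDUFA8, NDUFB4, SDHD and ATP5F1C. The 4 stretches printed next lie wholly before the annotated gene and show a motif in 3 complexes, with the motif in capitals, on the strand of the gene and at chr3:120596152-120596211 (plus strand), chr17:75047039-75047096 (minus), chr10:103396603-103396660 (minus) and chr19:1605547-1605604 (minus) of GRCh38.p14. In ATP5PD the ETS motif reads in reverse.
NDUFB4, NRF1 motif: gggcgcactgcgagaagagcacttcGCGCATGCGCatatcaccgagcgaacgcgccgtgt
ATP5PD, ETS motif: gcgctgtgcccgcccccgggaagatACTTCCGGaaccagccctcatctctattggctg
ATP5MK, ETS motif: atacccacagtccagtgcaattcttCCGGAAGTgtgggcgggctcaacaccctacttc
UQCR11, ETS motif: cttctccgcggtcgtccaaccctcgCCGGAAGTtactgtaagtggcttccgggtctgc

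In other features these promoters were like those of protein-coding genes, with a median GC content of 60.0% against 62.3% and a median of 21 CG pairs in both. TATAAA was found within 45 bases before the start in 0 of 85, against 3.21% of promoters of protein-coding genes. By level, 11 genes with the ETS motif and a usable TPM had a median of 460 TPM in replicate 1 and 449 TPM in replicate 2, and 38 genes with a promoter and none of the motifs had 237 TPM and 235 TPM. Genes with the YY1 motif were at 234 TPM and 247 TPM, and the 4 genes with the NRF1 motif were lower than those without a motif, at 189.5 TPM and 185.5 TPM. These are descriptions of matches in letters, and binding was not measured.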

How the data were processed

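The series holds 2 RNA-seq libraries of 1 group. The authors deposited a table of TPM per Ensembl transcript and a gene table whose values are a normalized signal: in the deposited signal each value was a whole multiple of 1 read's worth, 1.02 in replicate 1 and 1.12 in replicate 2, for 100% of values above 0 (relative tolerance 1e-06). Reads were recovered by division, and CPM taken over all reads in genes. The submitters' processing notes name Trim Galore 0.6.10, STAR 2.7.11a, DESeq2, Salmon 1.10.2 and GRCh38. The read counter, its use of strand and the annotation release are not given in the sources used here. No column of per-sample values was left unused (0 columns).

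TPM were summed per gene through GENCODE 29 (GRCh38) by identifier without version, which matched 201667 of 251955 transcripts and 94.8% of TPM in both libraries. Lengths, types and coordinates are from GENCODE 29, which may differ from the authors' release. Predicted reads were TPM times transcript length, scaled as reads. Exonic overlap used bedtools 2.31.1. Libraries were compared with edgeR 4.0.16 (exact binomial test, TMM sizes, filterByExpr, Benjamini-Hochberg, threshold 0.05) and DESeq2 1.42.0 size factors as the alternative, since 1 library against 1 allows no quasi-likelihood test. The calculation was tested on simulated data. Without molecular identifiers, Wilson intervals hold for counting error alone. The p-values ask only whether these 2 libraries differ by more than counting noise, and no spread between replicates enters them. Of 87 members, 70 matched a RefSeq promoter (2 through a synonym) and 17 did not. Alternatives covered the thresholds, scaling, pseudocount, transcript types and the promoter window.

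Members and lists were chosen with earlier results of these data known. Named were the 2 highest and 2 lowest members per complex by TPM (1 and 1 in complex II), all paralog pairs, catalytic subunits, up to 10 called members, short members, members whose top transcript differed, and the 2 highest of each further list. Other names were chosen after their values were seen. Results of 1 member are not reported here.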

Additional observations from a re-analysis of the deposited data

How the results depend on the processing

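No paired analysis was possible because there is only 1 group. With either replicate left out, 78 to 78 genes were detected, the share of reads was 1.096% to 1.102% and the median level 252 TPM to 264 TPM. The share of reads, 1.099%, became 2.88% as a share of TPM and 1.12% without genes of mitochondrial DNA in the denominator, both by construction. The median difference of -0.014 became -0.00063 with the deposited factors, where that of all genes was 0.0053, and -0.020 over genes with transcripts under 1000 bases, an alternative chosen after seeing the data. At a 2-fold limit 23 genes were short of reads, against 15. At 50 TPM or more the leading transcript differed in 1 gene, against 2. With protein-coding transcripts only, the median level was 232 TPM, against 258 TPM. The YY1 motif was in 2 promoters when the 50 bases after the start were left out, against 13. The other 27 combinations of a result and an alternative stayed within the spread or within 1.5 times the count. Over the scalings tried, the median difference of all genes lay between -0.011 and 0.0053, so directions of genes and complexes nearer to 0 than that are not settled. Of the 25 genes called, 21 were also called with DESeq2 size factors, 22 with library totals and 18 when every gene with a read was tested. Depth limits the alternate genes, where 0 reads allow 0.124 CPM or 0.135 CPM.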
